A study of Mus musculus with 6 samples.

Results

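The 10 imprinted growth genes Peg3, Usp29, Zim1, Igf2, H19, Cdkn1c, Dlk1, Meg3, Mest and Grb10, were followed through the quadriceps arrays of AR97Q mice that had exercised or stayed sedentary. AR97Q mice carry a human androgen receptor transgene with 97 CAG repeats and model spinal and bulbar muscular atrophy, a polyglutamine disease of motor neurons and skeletal muscle. All non-control probes whose target accession or symbol belongs to one of the 10 genes were taken, which gave 23 probes of the 56605 on the array. The genes were chosen by their role and from exercise and sedentary values of these same arrays, known from earlier work on them, so their differences between the groups are given as a description, without a test.

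The arrays came from male mice of 9 weeks on a C57BL/6J background, with 3 mice in each group and 1 single-colour Agilent array per mouse. The exercise group ran on a forced running wheel at 5 m/min for 60 min a day, 5 days a week, over 4 weeks from 5 weeks of age. Mice of the sedentary group carried the same transgene and had no training. No array of a wild-type mouse was analysed here, so each difference is between trained and untrained transgenic muscle, and the whole quadriceps was homogenised with every cell type it holds. Values below are log2 signals relative to the 75th percentile of the same array, so a value of 0 is the signal of the probe at that percentile, and each probe was compared with itself across arrays and not with other probes.

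In imprinted genes the copy from one parent is read and the other is largely silent, under the control of DNA methylation marks set in the germ line. Many of them act on fetal growth and on the upkeep of muscle and its stem cells, and genes read from the father's copy tend to promote growth while those read from the mother's copy tend to restrain it. They lie in clusters that share control regions. In skeletal muscle, Igf2, H19 and Dlk1 are high around birth and decline as fibres mature.

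The annotated genes fall into 5 places in the mouse genome (RefSeq, GRCm38.p6). Zim1 (chr7:6674444-6696540), Peg3 (chr7:6703892-6730462) and Usp29 (chr7:6730559-6967220) are neighbours, and the starts of Peg3 and Usp29 are back to back with 96 bases between the genes. At the far end of the same chromosome, H19 (chr7:142575530-142578146) and Igf2 (chr7:142650768-142666816) are 72621 bases apart, and Cdkn1c (chr7:143458339-143461059) follows. Dlk1 (chr12:109452485-109463336) and Meg3 (chr12:109540996-109571729) are 77659 bases apart, Mest is at chr6:30733506-30748466 and Grb10 at chr11:11930499-12037428.

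The 250 bases before a transcript start of the RefSeq table are shown for 3 of the genes, each 5′ to 3′ on the strand of the gene, from RefSeq on GRCm38.p6. Peg3 is shown because it had the largest difference among the brightest probes of the 10 genes under the scaling used here, Meg3 because its start held the same 8 letters, and Mest because this start, which lies inside the annotated extent of the gene, is rich in CG, with 17 in its window against 8 at the outermost start. The Peg3 stretch includes the outermost bases of the annotated gene, which extends slightly past the start used. Capitals mark TGACGTCA, the palindromic cAMP response element, in Peg3 (chr7:6730420-6730669, minus strand) and Meg3 (chr12:109540746-109540995, plus strand), and each CG in Mest (chr6:30737800-30738049, plus strand).
Peg3: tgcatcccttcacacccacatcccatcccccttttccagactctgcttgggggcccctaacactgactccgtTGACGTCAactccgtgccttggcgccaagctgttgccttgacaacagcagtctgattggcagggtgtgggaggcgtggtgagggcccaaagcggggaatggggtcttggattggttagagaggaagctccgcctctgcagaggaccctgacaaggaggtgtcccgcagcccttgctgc
Meg3: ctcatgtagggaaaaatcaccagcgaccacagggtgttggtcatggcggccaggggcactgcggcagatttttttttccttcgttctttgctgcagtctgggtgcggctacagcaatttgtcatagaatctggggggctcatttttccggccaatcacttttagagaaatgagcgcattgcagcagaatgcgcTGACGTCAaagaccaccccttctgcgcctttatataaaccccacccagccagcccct
Mest: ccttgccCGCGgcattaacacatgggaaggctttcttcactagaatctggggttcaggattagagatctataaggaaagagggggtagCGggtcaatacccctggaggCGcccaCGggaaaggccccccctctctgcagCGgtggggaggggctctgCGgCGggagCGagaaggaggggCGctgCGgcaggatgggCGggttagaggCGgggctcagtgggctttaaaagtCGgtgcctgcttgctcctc

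Start windows of 300 bases, 250 before the start and 50 after it, were matched for 8 of the 10 genes, in 15 windows. TGACGTCA was in 3 of these, which were the Peg3 window, the Usp29 window and 1 of the Meg3 windows, against 1.79% of all 32851 mouse windows. The Peg3 and Usp29 windows overlap by 263 bases and hold the same copy of the element, so that these are 2 independent sequences and not 3. GGGGCCCC, a core bound by the imprinted zinc-finger factor PLAGL1, was in 2 windows, again the shared stretch of Peg3 and Usp29, against 1.08% of all windows. AANATGGC, a core of YY1 sites, was in 0 of the 15 windows on either strand and in 6.05% of all windows. The windows of these genes held between 1 and 45 CG dinucleotides with a median of 13, beside a median of 7 over all windows. All motifs were searched on both strands, TGACGTCA was picked after the sequences had been read, and a match is only a description of the letters.

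All 6 arrays were on 1 slide. The array position in the barcode of each scanner header was taken as the row of the slide. By this reading, the first row held the 3 exercise arrays and sedentary mouse 1, and the second row held sedentary mice 2 and 3. Only the first row has both groups. The 75th percentile of signal was 251 to 257 on the exercise arrays and 310 to 384 on the sedentary ones, and 54.6 to 59.9% of probes were well above background. Having 3 arrays a group limits the precision. All 10 skeletal muscle markers tested, among them the muscle creatine kinase Ckm and the actin Acta1, were well above background on all arrays. Of 25003 genes tested with limma, 11.5% were called higher and 6.12% lower after exercise at an adjusted p under 0.05, and the median difference over all genes was 0.03.

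Of the 10 imprinted growth genes, measured by their brightest probe, 9 had a lower mean after exercise. Over all genes, 47.1% had a lower mean. The median difference of the 10 was -0.42, from -1.41 for Peg3 to 0.08 for Dlk1. In 6 genes (Peg3, Zim1, Igf2, H19, Meg3 and Mest) every exercise array was below every sedentary array, a pattern that 18.2% of all genes had. In none of the 10 was every exercise array above, as in 25% of all genes, and 43.2% of all genes had groups that did not overlap in either direction. The threshold of the limma fit was passed downwards by 3 (Peg3, H19 and Mest) and upwards by 0, where 17.6% of all genes passed it in either direction, and only Peg3 also had an absolute difference of 1 or more, as 1.06% of all genes did downwards. These counts describe genes chosen with this contrast known and nothing is read from them. The count of 3 was 0 with the row of the slide as a block and when any 1 array other than sedentary mouse 1 was left out. Without sedentary mouse 1 it was again 3, but these were Peg3, Igf2 and Zim1, so that H19 and Mest lost the call whichever array was left out. In bulk muscle, fewer cells of a type and less RNA per cell cannot be told apart in any of these values.

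**Figure D1:**
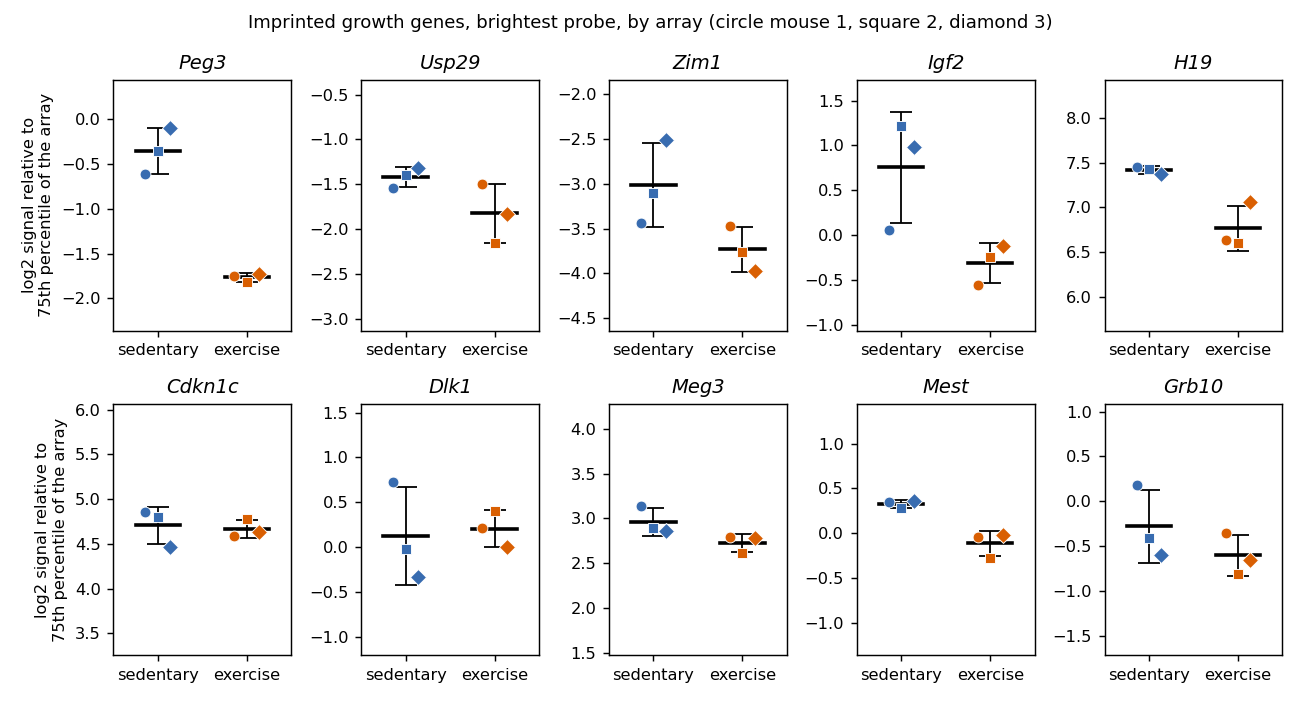
Log2 signal of the brightest probe of each gene relative to the 75th percentile of the array, with 1 symbol per mouse, group means as lines and SD as bars; every panel spans the same log2 range. The exercise arrays of Peg3 lie between -1.82 and -1.72, below all sedentary arrays, whereas those of Cdkn1c and Dlk1 overlap them.

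Peg3 encodes a large zinc-finger protein read from the father's copy, which is expressed in muscle stem cells. It had 1 probe, which was well above background on all 6 arrays. The exercise arrays read -1.75, -1.82 and -1.72, and the sedentary arrays read -0.62, -0.35 and -0.10 for mice 1, 2 and 3. The groups were apart and the exercise arrays lay much closer together than the sedentary ones. The means were -1.76 ± 0.05 (SD, n = 3) after exercise and -0.36 ± 0.26 (SD, n = 3) in sedentary mice, a difference of -1.41 with a standard error of 0.14, or 2.65-fold lower. Within the first row, against sedentary mouse 1 alone, the difference was -1.15. With a normexp background correction it was -0.85.

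Usp29, which starts beside Peg3 in the opposite direction and encodes a deubiquitinating enzyme, had 5 probes to both coding and non-coding transcripts. The brightest, to a non-coding transcript, read -1.49, -2.15 and -1.83 on the exercise arrays and -1.54, -1.40 and -1.32 on the sedentary ones. Exercise mouse 1 lay inside the sedentary range while the other exercise arrays were below it, and the difference was -0.41 with a standard error of 0.18. A probe to a coding transcript was well above background on 0 exercise arrays and on 2 of the 3 sedentary arrays. With the exercise arrays set to the lowest signal well above background it was 1.07-fold lower after exercise. This is not a strict minimum, as sedentary mouse 1 did not clear background either. The measured values of this probe were -6.66, -6.71 and -6.64 against -4.89, -4.37 and -3.84. The other 3 Usp29 probes, a second one to a coding transcript among them, did not clear background on any of the 6 arrays.

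Zim1, a maternally read zinc-finger gene on the other side of Peg3, gave dim signals. Its brighter probe read -3.47, -3.76 and -3.97 after exercise and -3.43, -3.10 and -2.51 in sedentary mice. The groups were apart, but exercise mouse 1 and sedentary mouse 1 nearly touched. The difference was -0.72 with a standard error of 0.26, and it was -0.30 against sedentary mouse 1 alone and -0.07 with normexp. On its second probe the difference was -0.44 with a standard error of 0.26, and the groups overlapped. Zim3, a further imprinted gene whose annotated extent overlaps the end of Usp29, read between -4.21 and -3.60 after exercise and between -4.36 and -3.80 in sedentary mice, a difference of 0.08 (SE 0.21, adjusted p = 0.817 by limma).

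Igf2, the fetal insulin-like growth factor read from the father's copy, showed its largest spread within the sedentary group. The brighter of its probes read -0.56, -0.25 and -0.13 after exercise and 0.05, 1.22 and 0.99 in sedentary mice. All exercise arrays were below all sedentary ones, and sedentary mouse 1 was far nearer to the exercise arrays than to the other sedentary mice. The means were -0.31 ± 0.22 and 0.75 ± 0.62 (SD, n = 3 each), 2.09-fold apart, with a difference of -1.06 and a standard error of 0.31. That difference was -0.36 against sedentary mouse 1, the only sedentary mouse in the first row, and -1.41 against sedentary mice 2 and 3. A dimmer probe of the same transcript also kept the groups apart, with sedentary mouse 1 again the lowest of its group, at -3.52, -3.58 and -3.44 after exercise and -2.86, -1.45 and -2.03 in sedentary mice, and a difference of -1.40 with a standard error of 0.33.

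H19, the long non-coding RNA read from the mother's copy of the same locus, gave a bright signal. Values were 6.64, 6.60 and 7.06 after exercise and 7.45, 7.43 and 7.37 in sedentary mice. Sedentary mouse 1 did not differ from the other sedentary mice here, unlike for Igf2, and exercise mouse 3 was the nearest to them. The means were 6.77 ± 0.25 and 7.42 ± 0.04 (SD, n = 3 each), a difference of -0.65 with a standard error of 0.14, or 1.57-fold lower after exercise. Against sedentary mouse 1 alone the difference was -0.69. The unscaled signals reached 64091 on sedentary mouse 2, and no spot was marked as saturated. A second probe, with unscaled signals of 2412 to 7007, read 3.23, 3.26 and 3.65 against 4.06, 4.24 and 4.19, a difference of -0.78 with a standard error of 0.14.

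H19 RNA is also the precursor of miR-675, which was not measured here, as 0 spots carried its accession. Its mature arms are given because they are the best-known small products of the transcript, with the seed, bases 2 to 8, in capitals (RefSeq, GRCm38.p6, chr7:142577112-142577133 and chr7:142577078-142577099, minus strand). The seeds of these arms are not the same.
mmu-miR-675-5p: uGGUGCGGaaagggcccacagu
mmu-miR-675-3p: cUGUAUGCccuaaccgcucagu

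Cdkn1c (p57), the cyclin-dependent kinase inhibitor that holds muscle precursors out of the cell cycle, did not separate the groups. Its probe read 4.58, 4.78 and 4.63 after exercise and 4.85, 4.80 and 4.47 in sedentary mice, so that sedentary mouse 3 had the lowest value of all. The difference was -0.05 with a standard error of 0.13. It turned to 0.04 when the arrays were scaled to their medians, where the median over all genes was 0.11.

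Dlk1, a transmembrane protein of the Notch family that marks growing muscle and preadipocytes, overlapped as well. The brighter probe read 0.22, 0.40 and 0.00 after exercise and 0.73, -0.03 and -0.34 in sedentary mice. Here sedentary mouse 1 was the highest array, the reverse of its place in Igf2. The difference was 0.08 with a standard error of 0.28. Where the medians over all genes were -0.45 without scaling and -0.13 in the deposited value table, it was -0.39 and -0.07. Split by sedentary mouse, it was -0.52 against mouse 1 and 0.39 against mice 2 and 3, and the second probe gave -0.48 and 0.35.

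Meg3, the maternally read long non-coding RNA of the same cluster, was the gene whose probes disagreed in sign. The brightest read 2.79, 2.61 and 2.78 after exercise and 3.14, 2.89 and 2.86 in sedentary mice, a difference of -0.24 with a standard error of 0.11. The groups did not overlap but came within a small step of each other. A second probe to the same transcript separated them more clearly, with -0.78, -0.81 and -0.67 against -0.36, -0.44 and -0.42 and a difference of -0.35 with a standard error of 0.08. A probe to another transcript of the gene went the other way, with -0.81, -1.48 and -0.73 against -1.40, -1.40 and -1.48. There, exercise mice 1 and 3 were above all sedentary mice and exercise mouse 2 was level with them, for a difference of 0.42 with a standard error of 0.20. The remaining probe of the gene did not rise above background.

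Mest, a paternally read gene of the hydrolase fold family linked to growth of fat and muscle, had lower values in each exercised mouse. Its brighter probe read -0.04, -0.28 and -0.02 after exercise and 0.35, 0.28 and 0.36 in sedentary mice. The sedentary arrays nearly coincided and all exercise arrays were below them. The difference was -0.44 with a standard error of 0.10, or 1.36-fold, and was -0.46 against sedentary mouse 1. The dimmer probe read -3.80, -4.49 and -3.42 against -3.32, -3.53 and -3.23 and overlapped, with a difference of -0.54 and a standard error of 0.27.

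Grb10, an adaptor that restrains signalling by the insulin and IGF1 receptors, gave probes that differed in size but not in sign. The brighter one read -0.35, -0.81 and -0.65 after exercise and 0.17, -0.42 and -0.60 in sedentary mice, overlapping, with a difference of -0.32 and a standard error of 0.23. Sedentary mouse 1 was the highest array, as for Dlk1. On the dimmer probe, values of -3.21, -3.79 and -3.48 lay below -2.21, -2.65 and -2.81, with a difference of -0.93 and a standard error of 0.21.

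**Figure D2:**
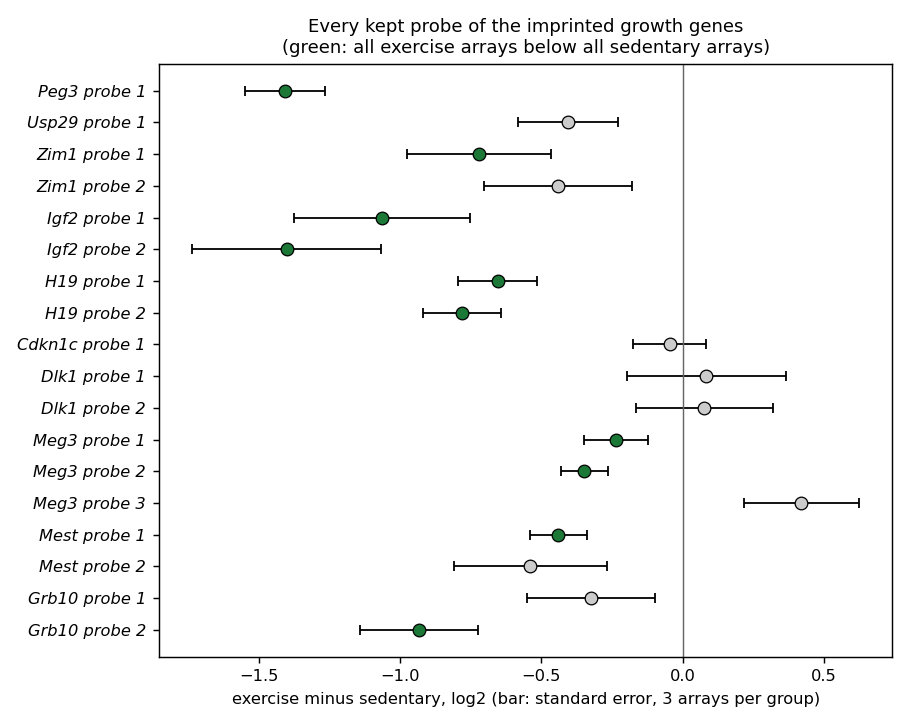
Difference between exercise and sedentary means (log2) for each of the 18 probes that cleared background on 3 or more arrays, with bars of 1 standard error; probe 1 is the brightest of its gene. Means were lower after exercise on 15 probes, and on 10 of these every exercise array was below every sedentary array (green).

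Across the 18 probes kept, 15 had a lower mean after exercise and 3 a higher one, which were both Dlk1 probes and the Meg3 probe to the other transcript. On 10 of them every exercise array was below every sedentary one, on 0 every exercise array was above, and 8 overlapped. Over all 32726 probes kept, 47.9% had a lower mean after exercise, 17.8% had every exercise array below and 24% every one above, and nothing is read from the counts of the chosen genes. Of the 7 genes with several kept probes, 1, Meg3, had probes of opposite sign.

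Sedentary mouse 1 split the genes. Against that mouse alone, in the same row of the slide, all 10 genes were lower after exercise on their brightest probe, and against sedentary mice 2 and 3 8 of them were. The share of all genes was not counted for either comparison, and nothing is read from these counts of chosen genes. H19 and Mest had differences of like size against both, -0.69 and -0.64 for H19 and -0.46 and -0.43 for Mest. For Peg3 (-1.15 and -1.54), Igf2, Zim1 and Usp29 the difference was larger against mice 2 and 3. Dlk1, Grb10, Meg3 and Cdkn1c had the larger shortfall against mouse 1, at -0.52, -0.78, -0.42 and -0.19. The mean level over the 10 genes was nevertheless alike in the sedentary mice, at 1.12, 1.13 and 1.12, and it was 0.66, 0.53 and 0.61 in the exercised ones. Such a gap was not particular to them. Among the lists described below, other imprinted genes were at 0.91 to 0.96 after exercise and 1.09 to 1.13 in sedentary mice. Cell cycle genes were at 0.64 to 0.68 and 0.77 to 0.81, while IGF axis and imprint maintenance genes overlapped. Position on the slide and training cannot be told apart for sedentary mice 2 and 3.

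**Figure D3:**
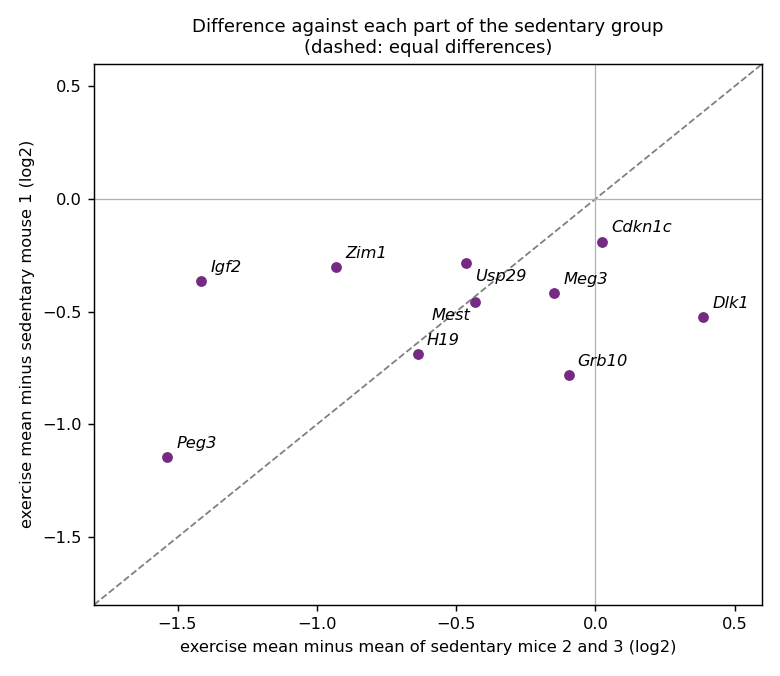
Difference of the exercise mean from sedentary mouse 1 (vertical axis, log2), which shared its row of the slide, against that from sedentary mice 2 and 3 (horizontal axis, log2), for the brightest probe of each gene. Peg3, H19 and Mest are well below 0 on both axes, Igf2 reads -0.36 and -1.41, and Dlk1 changes sign between the axes.

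Part of the effect of the scaling was a shift of all genes. Without scaling the median over all genes was -0.45, the deposited table had -0.13 and scaling to array medians 0.11, so differences are best read against these shifts. Quantile normalization and normexp moved single genes by unlike amounts, H19 to -0.99 and Peg3 to -1.36 with the first. Array medians, the deposited table and no scaling moved all genes by the same amount, so the order of the genes could not change there. Of the treatments that could reorder the 10 genes, quantile normalization left Peg3 lowest. Under normexp Peg3 was second to Igf2, at -0.85 beside -0.94 for Igf2. H19 ranged from -0.57 with array medians to -1.13 without scaling.

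**Figure D4:**
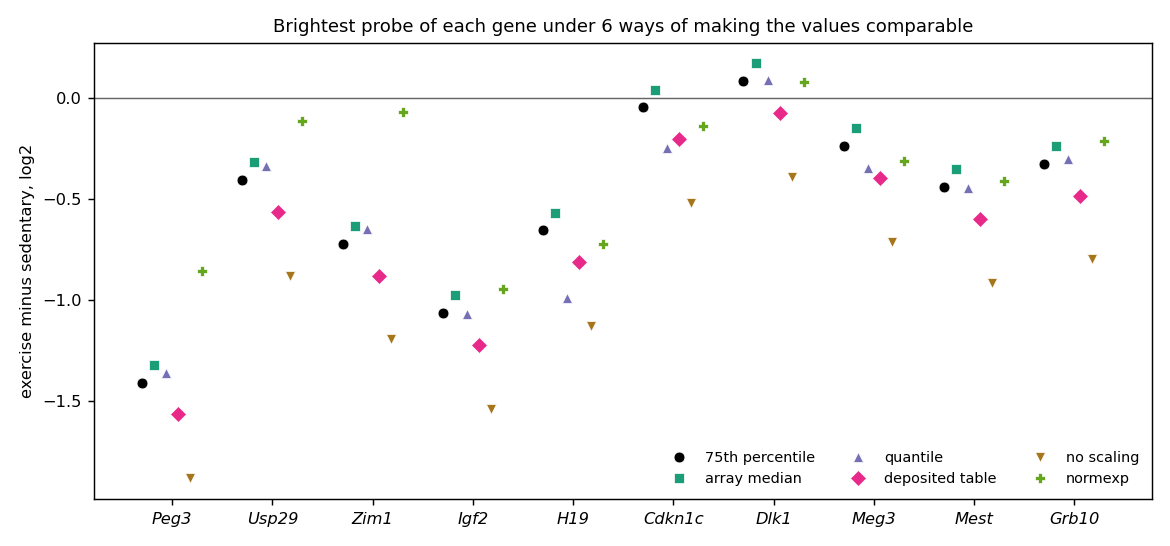
Exercise minus sedentary difference (log2) of the brightest probe of each gene under 6 scalings or background corrections, with 1 symbol per treatment. Peg3, Igf2, H19 and Mest stay below 0 throughout, and Zim1 shrinks to -0.07 with normexp. Cdkn1c and Dlk1 cross 0 only through shifts that all genes had alike.

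Likeness of pattern was measured as the root mean square distance between genes of their values over the 6 arrays, each centred on its own mean. The gene closest to Peg3 was Ddc, at 0.10, which encodes aromatic L-amino acid decarboxylase and lies next to Grb10 on chromosome 11. Ddc is listed here among other imprinted genes, but which parental copy was read in this muscle was not measured. It was followed by Zfp607b (0.14) and Gm32819 (0.15). The genes closest to H19 were D830031N03Rik, the histone deacetylase gene Hdac4 and Amt, a subunit of the glycine cleavage system, at 0.07 each. Those closest to Igf2 were Tmem202 (0.08), Zfp365 (0.09) and the mesenchymal transcription factor Foxf1 (0.09), and all had sedentary mouse 1 well below sedentary mice 2 and 3, at -1.55 for Tmem202 beside -0.42 and -0.55. These distances are descriptions over arrays that share their groups.

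Other imprinted genes were tested to place these values. Of 57 listed, 46 could be tested, and 3 of them were higher and 4 lower after exercise, together 15.2% against 17.6% of all genes called in either direction. Differences were below 0 in 28 and above 0 in 18, with a median of -0.12. All exercise arrays were below all sedentary arrays in 16 and above them in 8 of the 46, beside 18.2% and 25% of all genes.

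The 4 that fell were Ddc, Copg2, Ppp1r9a and Mkrn3. Ddc read 0.39, 0.32 and 0.31 after exercise and 1.64, 1.72 and 1.82 in sedentary mice, a difference of -1.39 (SE 0.09, adjusted p = 0.0234 by limma). Copg2, which encodes a coatomer subunit and whose annotated extent overlaps that of Mest, read 0.88, 1.09 and 0.89 against 1.62, 1.62 and 1.70, a difference of -0.69 (SE 0.09, adjusted p = 0.0234 by limma). Both groups of values were tight and far apart on these probes, and Ddc, 32.4 kb from Grb10, and Copg2 are neighbours of genes described above. A dimmer Copg2 probe read -2.84, -2.91 and -2.92 against -2.90, -2.28 and -2.27, a difference of -0.40. Sedentary mouse 1 lay inside the exercise range there. Ppp1r9a, a neuronal actin-binding protein, differed by -0.77 (SE 0.15, adjusted p = 0.0284 by limma). Mkrn3, a ubiquitin ligase, cleared background on 0 of the 3 exercise arrays and was at least 1.95-fold lower (adjusted p = 0.0351 by limma), but differed by -0.11 with normexp. It entered the test only through the sedentary arrays, so that its values there had to be the higher ones, and it adds no weight to the count of 4.

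The 3 that rose were Slc38a4, an amino acid transporter, by 0.86 (SE 0.18, adjusted p = 0.0300 by limma), Asb4, an adaptor of a ubiquitin ligase, by 0.70 (SE 0.18, adjusted p = 0.0464 by limma), and Snrpn, a splicing protein, by 0.67 (SE 0.11, adjusted p = 0.0238 by limma). Each of the 3 Snrpn probes was higher after exercise, by 0.62 to 0.75. Plagl1, a zinc-finger factor that binds within this network, did not pass the test at -0.14 (SE 0.09, adjusted p = 0.286 by limma), and its second probe differed by 0.19. Igf2r, the receptor that clears IGF2 and is read from the mother's copy, did not pass it either at -0.45 (SE 0.13, adjusted p = 0.0586 by limma), although its groups did not overlap. None of the 7 calls held with the row of the slide as a block, or without any 1 of the arrays other than sedentary mouse 1. Against that mouse alone the differences on the brightest probes were -1.30 for Ddc, -0.67 for Copg2, -0.45 for Ppp1r9a, 0.47 for Slc38a4, 0.43 for Asb4 and 0.50 for Snrpn.

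**Figure D5:**
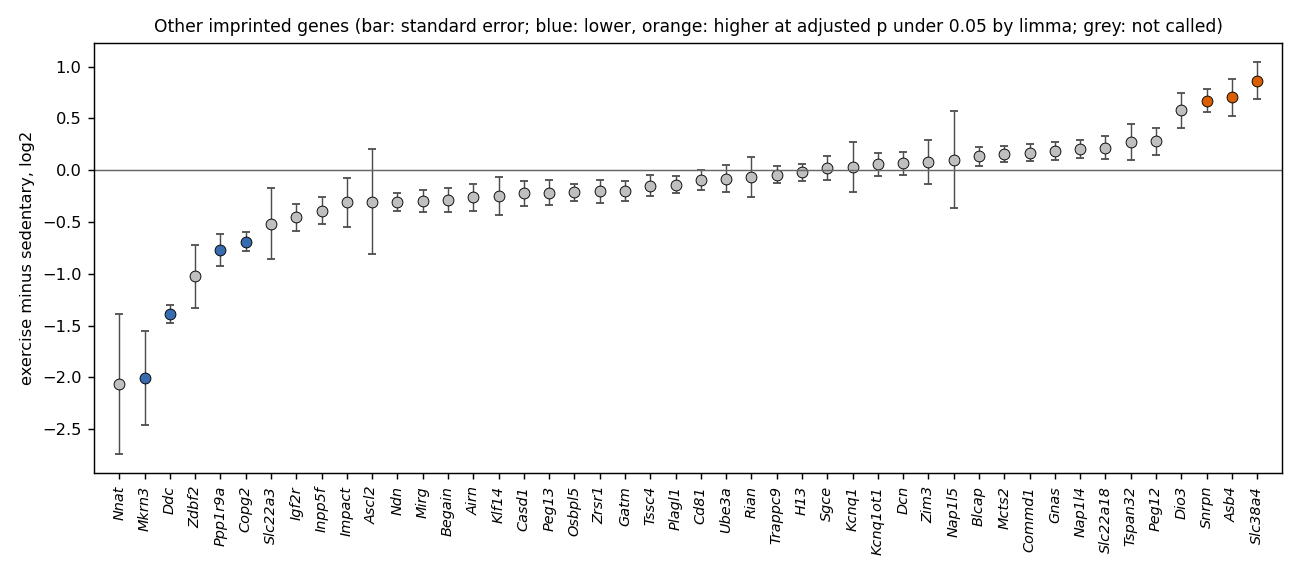
Exercise minus sedentary difference (log2, brightest probe) of the 46 other imprinted genes tested, sorted, with bars of 1 standard error and colour for the limma call over all genes. The 4 called lower include Ddc at -1.39 and the 3 called higher reach 0.86 in Slc38a4. The lowest of all, Nnat at -2.06 (SE 0.67), was not called, and most of the rest lie near 0.

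Among neighbours of the 10 genes, 9 at the far end of chromosome 7, within 1000 kb of Igf2 or Cdkn1c, were tested and 0 were called by limma, with 1 at an unadjusted p under 0.05. Kcnq1ot1, the non-coding RNA of the Cdkn1c domain, differed by 0.06 (SE 0.11), and these neighbours ranged from -0.30 for Ascl2 to 0.27 for Tspan32. In the Dlk1 and Meg3 cluster 0 of 4 were called and 3 had an unadjusted p under 0.05. Over all 25003 genes, 17.6% were called and 9249 had an unadjusted p under 0.05. Rian differed by -0.06, Mirg by -0.30 and Begain by -0.29. Dio3, the enzyme that inactivates thyroid hormone, differed by 0.58 (SE 0.17, adjusted p = 0.0603 by limma). These neighbours were taken by their place from the fixed list of imprinted genes, after their values had been seen.

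In the IGF axis, 4 of 14 tested genes were called, 2 higher and 2 lower, or 28.6% against 17.6% of all genes. Igf2bp3, an RNA-binding protein that takes Igf2 mRNA as a target, read -1.58, -1.58 and -1.36 after exercise and -0.75, 0.27 and 0.17 in sedentary mice, a difference of -1.41 (SE 0.28, adjusted p = 0.0273 by limma). It had the same low sedentary mouse 1 as Igf2, and the difference from that mouse was -0.76. Igf1r, the signalling receptor for both IGFs, differed by -0.64 (SE 0.10, adjusted p = 0.0236 by limma) on its brighter probe and by -0.26 on the other. The binding proteins Igfbp2 and Igfbp6 were higher, by 0.71 (SE 0.18, adjusted p = 0.0477 by limma) and 0.38 (SE 0.09, adjusted p = 0.0356 by limma). Without scaling Igfbp6 read -0.10, where the median over all genes was -0.45. Again none of these calls held with the row as a block.

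Of 13 kinases, cyclins and inhibitors of the cell cycle, Ccnd3, the D-type cyclin of differentiating muscle, was the 1 that passed the test, at -0.30 (SE 0.08, adjusted p = 0.0466 by limma). Of 16 genes that set or keep imprints, the 1 called was Dnmt1, the methyltransferase that copies methylation after replication, at -0.44 (SE 0.09, adjusted p = 0.0309 by limma). These shares, 7.69% and 6.25%, were below the 17.6% of all genes, and neither call held with the row as a block.

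Of the marker lists, 3 had mean levels that were lower after exercise with no overlap between the groups. Of 13 genes of embryonic muscle and denervation, 8 were lower and 1 higher, against 6.12% and 11.5% of all genes, and their mean level was 1.50 to 1.82 after exercise and 2.37 to 3.48 in sedentary mice, with sedentary mouse 1 the lowest. Chrng, the fetal subunit of the acetylcholine receptor, read -1.94, -1.56 and -1.11 against 0.28, 2.84 and 3.12, a difference of -3.62 (SE 0.75, adjusted p = 0.0304 by limma). Sedentary mouse 1 stood between the exercise arrays and the other sedentary mice there, as it did for Igf2. Of the muscle stem cell markers 1 of 8 was called, or 12.5% against 17.6% of all genes, Pax7 at -0.60 (SE 0.11, adjusted p = 0.0255 by limma), and the list had a mean level of 0.63 to 0.82 after exercise and 0.94 to 1.04 in sedentary mice, while Myf5 was too dim to test. Schwann cell markers had a mean level of 0.93 to 1.22 after exercise and 1.32 to 1.58 in sedentary mice. The part of these groups in the values of the imprinted growth genes was not tested.

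The remaining lists gave overlapping levels or a higher level after exercise. Fibroblast markers, of which 0 of 10 were called by limma and 0 had an unadjusted p under 0.05, were at 3.79 to 4.02 after exercise and 3.84 to 4.03 in sedentary mice. Endothelial markers (0 of 8 called, 1 at an unadjusted p under 0.05) were at 1.75 to 2.12 and 1.85 to 2.06, and macrophage markers (0 of 8 called, 0 unadjusted) at 2.61 to 2.87 and 2.61 to 2.93. Beside these counts, 17.6% of all 25003 genes were called and 9249 had an unadjusted p under 0.05. Adipocyte markers spread from 2.56 to 4.12 among the exercise arrays and from 3.67 to 3.96 among the sedentary ones, and Lep was the 1 called of 8, at 0.35 (SE 0.09, adjusted p = 0.0415 by limma). The differences of the other 7 were below 0 and did not pass the test, and the median of the list was -0.85. Smooth muscle markers were at 3.60 to 3.79 and 3.78 to 4.15, with 1 of 6 called higher and 1 lower. The lower one was the smooth muscle myosin Myh11 at -0.95 (SE 0.09, adjusted p = 0.0234 by limma), and the higher one the smooth muscle actin Acta2 at 1.32 (SE 0.14, adjusted p = 0.0234 by limma) on its brightest probe, while its other probes differed by -0.89 and -0.80. Skeletal muscle markers were at 7.54 or more after exercise and 6.88 to 7.48 in sedentary mice, with 5 of 10 higher, against 11.5% of all genes, and 0 lower. Their part was likewise not tested.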

How the data were processed

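Total RNA of 6 quadriceps was labelled with Cy3 and hybridised to 1-colour Agilent arrays, and the authors deposited scanner output of Agilent Feature Extraction (12.1.0.3 per the file headers) with background-subtracted intensity for 62976 spots per array. They also deposited a table of processed intensities rescaled per array, whose log2 was used here as an alternative. From the intensities, log2 values minus the 75th percentile of each array were computed with no pseudocount, spots of a probe were averaged, and a probe was kept where 3 or more of the 6 arrays had it well above background. Probes were named by accession (34566), symbol (11) or unique synonym (12) through RefSeq, and 22016 stayed unnamed and were tested under their own target names. The brightest probe stood for a gene. The groups were tested with limma 3.58.1 under R 4.3.3 (linear fit with eBayes, two-sided, Benjamini-Hochberg over 25003 genes), without covariates, and the procedure was tested on simulated data. The alternatives were other scalings, background corrections, filters and probe rules, blocks, and arrays left out. The labels give replicate numbers and no animal identity, and the study states 3 mice per group, so each array was taken as a separate mouse.

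The 10 genes, the gene lists and the tests were chosen with earlier results of these data known. All 10 genes are named with every probe, then at most 6 genes per further list with the largest difference among those at an adjusted p under 0.05, Plagl1 and Igf2r, and the 3 genes of most similar pattern for Peg3, H19 and Igf2. Zim3, Nnat and the neighbours not called were added after their values were seen. Depth does not apply to arrays, and the number of arrays limits precision.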

Additional observations from a re-analysis of the deposited data

How the results depend on the processing

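Counts are given as all genes higher, all genes lower, imprinted growth genes lower, other imprinted genes higher and lower, IGF axis, cell cycle and imprint maintenance genes, which were 2868, 1530, 3, 3, 4, 4, 1 and 1, with 9249 genes at an unadjusted p under 0.05. The replicate numbers did not pair the mice (correlations of deviations 0.02, 0.08 and 0.04 for same numbers). With the replicate number as a block all these counts were 0 by limma, with 8591 genes at an unadjusted p under 0.05. With the row of the slide as a block they were 0 except 3 genes lower (4827 unadjusted), and among the 4 arrays of the first row 0 (4065 unadjusted). Leaving out 1 array gave 0 to 3476, 0 to 2060, 0 to 3, 0 to 3, 0 to 5, 0 to 6, 0 and 0 to 3, where only the fit without sedentary mouse 1 called more than 1 gene, and 6685 to 9603 genes were at an unadjusted p under 0.05. No imprinted growth gene was called higher under any alternative.

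Without scaling the counts were 617, 11281, 9, 1, 29, 6, 9 and 8. With normexp they were 6168 higher, 5 imprinted growth genes lower, 5 and 8 other imprinted genes and 6 imprint maintenance genes, and from the deposited values 1172, 3203, 4, 2, 8, 3, 2 and 3. Quantile normalization gave 1864 higher. Array median scaling gave 875 lower, 2 IGF axis and 0 cell cycle genes (8404 unadjusted). No filter gave 9741 higher and 3 imprint maintenance genes, as did a filter on all 6 arrays for the latter. The mean of probes gave 0 cell cycle genes, the probe with the largest SD 0 and 2 maintenance genes, and eBayes with trend and robust 7 other imprinted genes lower and 2 maintenance genes. Requiring a difference of at least 1 left 430, 264, 1, 0, 2, 1, 0 and 0. Outside the imprinted growth genes, sign changes were seen for Plagl1, to 0.024 with the mean of its probes and 0.19 with the most variable one, and Igfbp6, to -0.10 without scaling. Among the imprinted growth genes, Meg3 changed to 0.42 with the most variable probe and Cdkn1c to 0.04 with array medians. Dlk1 changed to -0.39 without scaling, -0.07 from the deposited values and -0.52 with the row as a block. The changes of Igfbp6 and Cdkn1c, and of Dlk1 without scaling and in the deposited values, were shifts that all genes had alike. The medians over all genes were -0.45 without scaling, -0.13 in the deposited values and 0.11 with array medians. With 1 array left out, Cdkn1c ranged from -0.17 to 0.03 and Dlk1 from -0.15 to 0.39. The causes of the other changes were not tested.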
